A study of Rattus norvegicus with 6 samples.

Results

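The genes described here encode the proteins of the mitochondrial ribosome, and they were taken as every gene whose symbol is Mrpl or Mrps followed by a digit, with pseudogene names (ending in -ps) left out. The gene table used for names, of the rat assembly GRCr8, holds 78 such genes. Of the 78, 66 were matched to at least 1 probe through its RefSeq accession, out of 15284 named genes with a probe on the array, and all 66 passed the filter on dim probes. The other 12 (Mrpl28, Mrpl33, Mrpl39, Mrpl41l1, Mrpl42l1, Mrpl43, Mrps10, Mrps21l, Mrps28, Mrps36l1, Mrps6 and Mrps7) had no matched probe and were not analysed here. The RNA was total RNA from renal cortex, the outer part of the kidney, and the animals were 6 male Sprague-Dawley rats of the stock Crl:CD(SD), bought when 5 weeks old. The vehicle group was 3 rats given corn oil for 4 weeks, and the treated group was 3 rats given phenolphthalein, a pH indicator dye that was long sold as a laxative, at a dose of 1000 mg/kg/day over the same time. All 6 rats ate the same basal diet, and each rat had 1 single-colour Agilent array. The comparison asks how these genes stood in phenolphthalein rats against vehicle rats.

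Mitochondria carry their own ribosome, which translates the few messages of the mitochondrial genome into core subunits of the respiratory chain. Its RNAs are made inside the organelle, whereas all of its proteins are encoded in the nucleus, translated in the cytosol and imported. It has a large subunit, which forms the peptide bonds, and a small subunit, which decodes the message, and each holds both descendants of bacterial ribosomal proteins and proteins found only in mitochondria. In the renal cortex, proximal tubule cells are rich in mitochondria and rely on oxidative phosphorylation to drive reabsorption.

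Between 64.8% and 72.1% of an array's probes gave a signal well above background, 0 were saturated and 2 to 14 spots carried an outlier flag. Precision is limited by the 3 arrays in each group. The vehicle arrays came from a single slide, phenolphthalein replicates 2 and 3 from another, and phenolphthalein replicate 1 from a slide of its own, so that slide and treatment cannot be told apart. The deposited value table numbers the replicates within each group in another order than the scanner files used here, so replicate numbers are uncertain within a group, and no array changes its group. The labelled tissue was checked against proximal tubule markers: all 8 were tested, among them the phosphate transporter Slc34a1 (level 7.83 to 8.06 over the 6 arrays) and the inositol oxygenase Miox (9.03 to 9.14). Of the 8, 2 had a higher and 6 a lower mean in phenolphthalein rats (median -0.11), and Slc34a1 alone had an unadjusted p under 0.05 (-0.12, groups without overlap). Of the markers of other segments, Slc12a3, the salt cotransporter of the distal convoluted tubule, differed by -0.39 and Aqp2, the water channel of the collecting duct, by -0.58, both without overlap and with limma adjusted p of 0.357 and 0.515, and the median over the probes of Slc12a3 was 0.016. Other markers went the other way, with higher means for 3 of 5 in the collecting duct and 2 of 2 tested in the thick ascending limb. Of 4 podocyte markers, 2 were higher, 1 of them without overlap, and 2 were lower. A level here is the log2 of the processed spot intensity minus the log2 of that array's 75th percentile, so that 0 is the 75th percentile. Markers of immune cells had lower values in phenolphthalein rats. The mean over 6 T and NK cell markers, given as the difference from the vehicle mean, lay between -0.14 and 0.23 in the vehicle rats and between -0.72 and -0.38 in the phenolphthalein rats, and all 6 had lower means, 4 of them at an unadjusted p under 0.05. The same mean over 4 of 5 macrophage markers lay between -0.09 and 0.13 and between -0.51 and -0.28, with 3 of 4 lower at that threshold. Over all items 4.96% were lower at that threshold. The smallest limma adjusted p was 0.477 among the T and NK cell markers and 0.433 among the macrophage markers. The mean over 15 liver markers varied within the groups, from -0.72 to 0.75 in vehicle and from -0.28 to 1.21 in phenolphthalein rats. The part of these markers in the values below was not tested, and in whole tissue fewer cells of a type and less RNA per cell cannot be told apart.

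The genes of the mitochondrial ribosome had close mean levels in both groups. None of the 66 (0 genes) passed an adjusted p of 0.05 (limma, Benjamini-Hochberg over all 34417 items tested), and neither did any of the other items (0% called). The smallest adjusted p was 0.505 among the 66 genes and 0.307 among all items. At an unadjusted p under 0.05, 2 of the 66 were higher in phenolphthalein rats, Mrpl18 and Mrpl16, and 2 were lower, Mrpl52 and Mrpl14. Over all items 3.91% were higher and 4.96% lower at that threshold (8.87% together), so these counts are near the background and are no result about the set. Leaving out 1 array gave 0 to 2 higher and 0 to 3 lower. Without vehicle replicate 3, 0 were higher and Mrps33 alone was lower; without vehicle replicate 1, 0 were lower; and without phenolphthalein replicate 2, Mrpl48 joined the lower genes. Without phenolphthalein replicate 1, the array on its own slide, Mrps35 was the higher gene and Mrpl46 the lower one, and without phenolphthalein replicate 3 they were Mrpl18 and Mrpl17. Without vehicle replicate 2 they were Mrpl16 and Mrpl52. The groups did not overlap for 2 higher genes (Mrpl18 and Mrpl16; 6.59% of all items) and 3 lower genes (Mrpl14, Mrps11 and Mrpl55; 9.11% of all items). Of the 66, 28 had a higher mean in phenolphthalein rats and 38 a lower one, 57.6% lower, where 45.8% of all items had a higher mean and 54.2% a lower one. Their median log2 fold change, phenolphthalein minus vehicle, was -0.016, as was that of all items, and it was 0.00033 with quantile normalization, under which 33 genes stood on each side of 0.

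The differences were small and the genes were measured with little spread. The median size of the log2 fold change, ignoring sign, was 0.035 among the 66 genes, 0.099 among all named genes and 0.11 among all items. The median SD between rats within a group was 0.067 for these genes, from 0.024 for Mrps17 to 0.31 for Mrpl18, and 0.15 for all items. The same median was 0.060 for cytosolic ribosomal protein genes and 0.053 for respiratory chain subunits encoded in the nucleus. Little spread was thus not particular to the 66 genes. Of 113 probes to these genes, 112 were well above background on all 6 arrays and 1 on 5, and the mean of the vehicle rats lay above the 75th percentile for 64 of the 66. The exceptions were Mrps27 and Mrps5. A missed threshold alone does not show that 2 groups are alike, so the 95% interval of each difference is given (limma, for each gene by itself, not adjusted for the number of genes). These intervals come from the fit with the intensity trend and no term for slide. They were not computed again under the alternatives listed below. The whole interval lay within a 1.2-fold change either way for 49 of the 66 genes and for 20.9% of all items. It lay within 1.5-fold for 63 of 66, beside 65.1% of all items, and within 1.1-fold for 6. All items include 22148 unnamed probes, and these shares were not computed for other genes of like level or spread. The 3 genes whose interval reached past 1.5-fold were Mrpl18, Mrpl52 and Mrpl4, and of these only Mrpl18 reached past 2-fold.

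**Figure D1:**
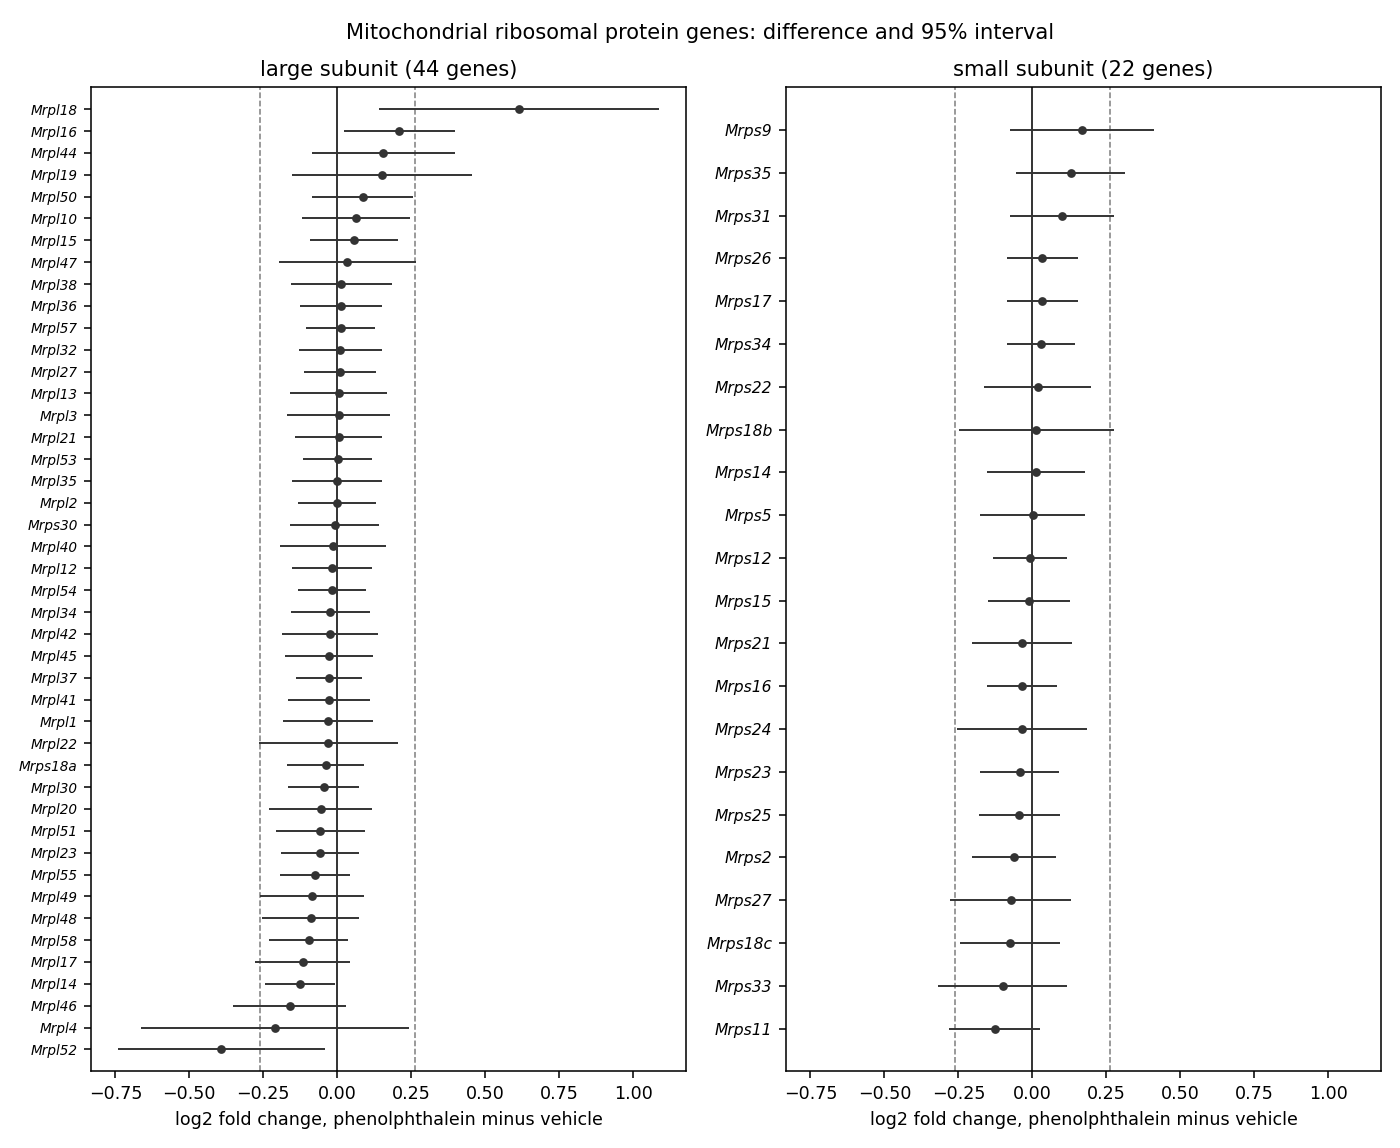
Log2 fold change of each of the 66 genes, phenolphthalein minus vehicle (point), with its 95% limma interval (line), for the large subunit (left) and the small subunit (right); dashed lines mark 1.2-fold. Most lines stay between the dashed lines, and Mrpl18 at the right and Mrpl52 at the left stand farthest from 0.

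Averaged over the 66 genes, the level minus the vehicle mean was 0.03, -0.01 and -0.02 in vehicle replicates 1 to 3 and -0.02, -0.02 and 0.02 in phenolphthalein replicates 1 to 3. The groups overlapped, and vehicle replicate 1 and phenolphthalein replicate 3 were the highest of the 6. Counted by gene, vehicle replicate 1 held the highest value of 19 of the 66 genes (28.8%, beside 15.1% of all items) and the lowest of 3. Phenolphthalein replicate 1, the array on a slide of its own, held the lowest value of 23 genes (34.8%, beside 26.5% of all items) and the highest of 12. The share of genes with a lower mean in phenolphthalein rats, 57.6%, was 51.5% without that array and 71.2% without phenolphthalein replicate 3.

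**Figure D2:**
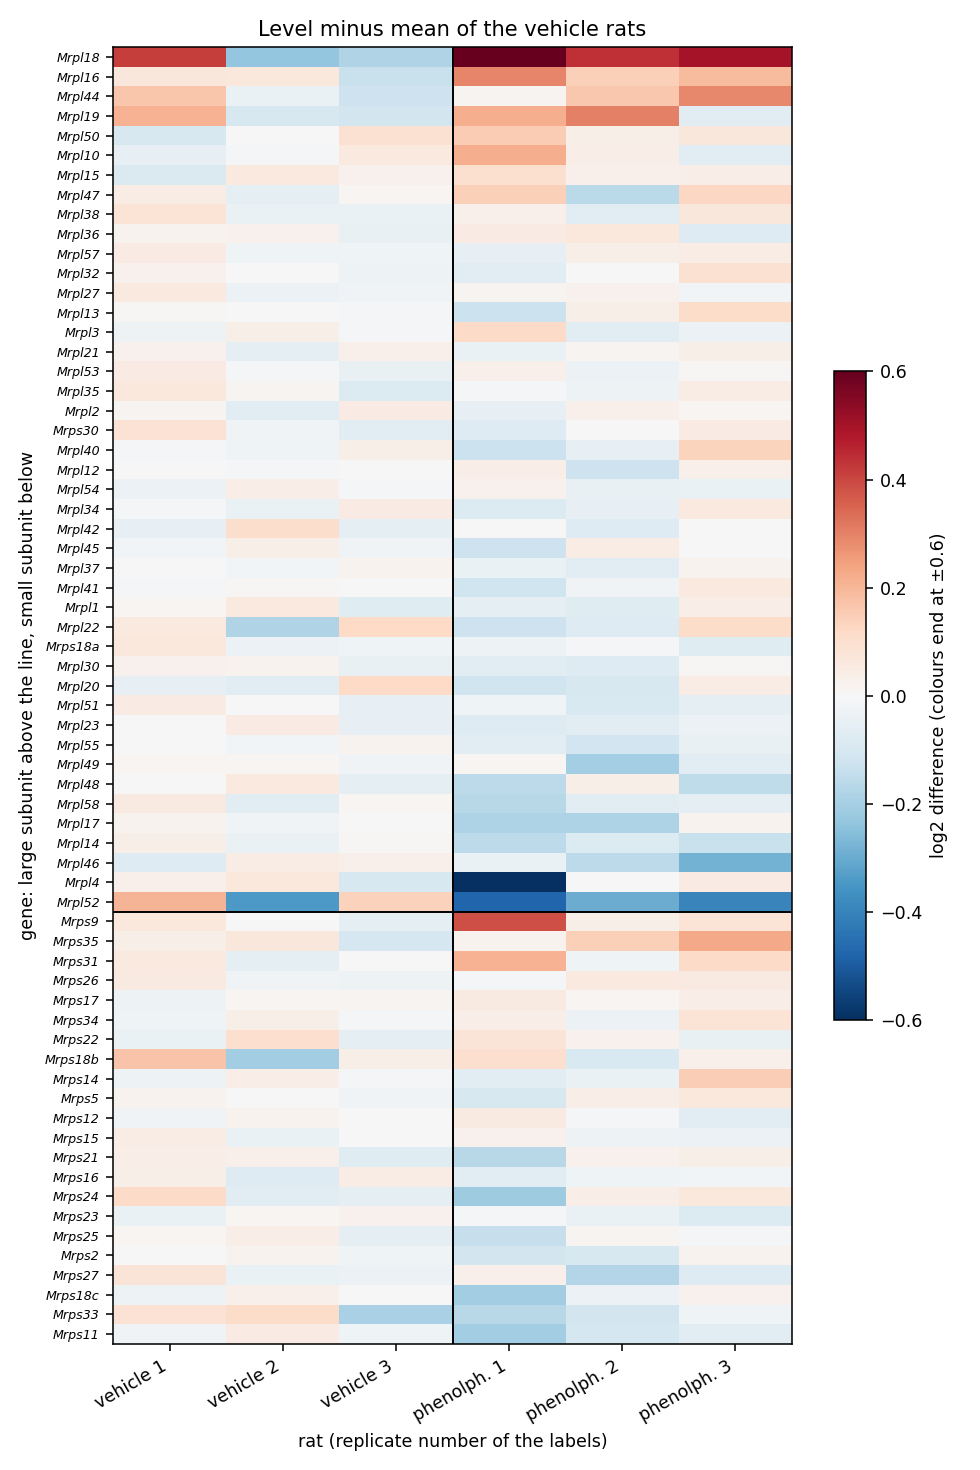
Level of each gene in each rat minus the mean of the 3 vehicle rats (colour, log2; red higher, blue lower), with the large subunit above the line. No column is of one colour. Mrpl18 at the top is red in the phenolphthalein rats and also in vehicle replicate 1. Its value in phenolphthalein replicate 1 lies beyond the colour scale, as does the low value of Mrpl4 in the same rat.

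Among the large subunit proteins that descend from bacterial ones, 24 were measured, 13 with a higher and 11 with a lower mean in phenolphthalein rats (median log2 fold change 0.0020). The gene with the smallest p was Mrpl18, the counterpart of a bacterial protein of the central protuberance of the large subunit. Its level was 3.64, 2.99 and 3.04 in vehicle replicates 1 to 3 and 4.13, 3.66 and 3.72 in phenolphthalein replicates 1 to 3. The groups did not overlap, and vehicle replicate 1 lay just below the lowest phenolphthalein rat. The difference was 0.61 (SE 0.20, 95% interval 0.14 to 1.09), a 1.53-fold higher mean, with an unadjusted p of 0.0180 and a limma adjusted p of 0.505. A dimmer probe to the same gene read 3.42, 3.35 and 3.19 in vehicle and 3.64, 3.53 and 3.54 in phenolphthalein rats, again without overlap, with a difference of 0.25. Both probes were thus higher in each phenolphthalein rat than in any vehicle rat, by different amounts. Averaging the probes by their median gave 0.43, and leaving out vehicle replicate 1 gave 0.82. The stretch before its RefSeq start (chr1:50384752-50384951, GRCr8, plus strand) is shown because this gene had the largest difference of the set.
Mrpl18, 200 bases before the start: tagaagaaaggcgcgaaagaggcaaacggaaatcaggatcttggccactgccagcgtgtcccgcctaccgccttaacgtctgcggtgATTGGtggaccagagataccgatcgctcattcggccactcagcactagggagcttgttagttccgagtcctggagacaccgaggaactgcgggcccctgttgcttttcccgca
The capitals mark a CCAAT box read on the opposite strand, whose first printed base lies 113 bases before the start.

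Mrpl16, the counterpart of a bacterial protein that helps to position transfer RNA at the peptidyl transferase centre, stood at 2.43, 2.43 and 2.23 in the vehicle rats and 2.66, 2.51 and 2.56 in the phenolphthalein rats. Each phenolphthalein rat was above each vehicle rat, and the difference was 0.21 (SE 0.08, limma adjusted p = 0.534). Mrpl14, a protein of the face that meets the small subunit, stood at 4.41, 4.34 and 4.38 in vehicle and 4.22, 4.29 and 4.24 in phenolphthalein rats. Here each phenolphthalein rat was below each vehicle rat, the difference was -0.13 (SE 0.05, limma adjusted p = 0.550), and a second probe gave -0.19. Mrpl17, which lies near the exit of the peptide tunnel, had 4 probes, all with a lower mean, from -0.12 for the brightest to -0.06 for the dimmest. Its brightest probe read 4.64, 4.60 and 4.63 in vehicle and 4.44, 4.44 and 4.64 in phenolphthalein rats, so that phenolphthalein replicate 3 stood with the vehicle rats. Mrpl19 differed by 0.15, with an interval from -0.15 to 0.46, and by 0.07 without phenolphthalein replicate 2 and 0.26 without phenolphthalein replicate 3. Mrpl4, which lines the peptide tunnel, was at 1.85, 1.88 and 1.73 in vehicle and at 1.14, 1.82 and 1.87 in phenolphthalein rats. Only phenolphthalein replicate 1 was low, and the interval of the difference, -0.66 to 0.24, was among the 3 that reached past 1.5-fold. Without that rat the difference was 0.03, on the other side of 0.

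The large subunit proteins found only in mitochondria numbered 19, of which 5 had a higher and 14 a lower mean in phenolphthalein rats, with a median of -0.028. Mrpl52 had the largest difference below 0 of all 66 genes. Its level was 1.94, 1.39 and 1.87 in vehicle replicates 1 to 3 and 1.26, 1.43 and 1.33 in phenolphthalein replicates 1 to 3. Vehicle replicate 2 lay among the phenolphthalein rats, so the groups overlapped. The difference was -0.39 (SE 0.15, 95% interval -0.74 to -0.04), with an unadjusted p of 0.0327 and a limma adjusted p of 0.533, and it was -0.56 without vehicle replicate 2. The second probe read 1.19, 0.66 and 1.19 in vehicle and 0.69, 0.56 and 1.14 in phenolphthalein rats, a difference of -0.22. On that probe vehicle replicate 2 was again low, while phenolphthalein replicate 3 stood with the other vehicle rats. The bases before its start (chr15:31852736-31852935, GRCr8, plus strand) are shown as those of the lowest gene of the set.
Mrpl52, 200 bases before the start: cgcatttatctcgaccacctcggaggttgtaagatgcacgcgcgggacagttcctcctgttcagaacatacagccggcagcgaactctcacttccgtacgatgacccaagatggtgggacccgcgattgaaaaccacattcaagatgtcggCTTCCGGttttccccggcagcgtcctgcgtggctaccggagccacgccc
The capitals mark the ETS motif CCGGAAG on the opposite strand, 49 bases before the start.

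In the same group of large subunit proteins, Mrpl46 read 2.09, 2.21 and 2.19 in vehicle and 2.12, 2.01 and 1.88 in phenolphthalein rats. Phenolphthalein replicate 1 overlapped with vehicle replicate 1, and the difference was -0.16 (SE 0.08, limma adjusted p = 0.624). Mrpl58, which descends from a peptide release factor and frees stalled peptides, differed by -0.10, and by -0.14 on its second probe. Mrpl48 differed by -0.09. Mrpl44, which has a fold like that of ribonuclease III, had a mean higher by 0.16 with overlapping groups (2.67 to 2.97 in vehicle, 2.81 to 3.09 in phenolphthalein), and Mrpl50 one higher by 0.09. Mrpl55, which was not put in either class, read 3.42, 3.40 and 3.44 in vehicle and 3.35, 3.30 and 3.38 in phenolphthalein rats. Its groups did not overlap, and the difference was -0.08 (limma adjusted p = 0.696), and its second probe also gave -0.08.

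The small subunit was measured through 22 genes, 10 with a higher and 12 with a lower mean in phenolphthalein rats (median -0.0093). Of the 22, 0 had an unadjusted p under 0.05, beside 8.87% of all items. Of the 12 with a bacterial counterpart, 4 were higher and 8 lower (median -0.023), and of the 10 found only in mitochondria, 6 were higher and 4 lower (median 0.016). Mrps11, a protein of the platform over which the message leaves, read 1.78, 1.84 and 1.77 in vehicle and 1.59, 1.69 and 1.73 in phenolphthalein rats. Every phenolphthalein rat was below every vehicle rat, by a mean of -0.13 (SE 0.07, limma adjusted p = 0.624). Mrps9, whose bacterial counterpart touches the transfer RNA in the peptidyl site, read 2.29, 2.22 and 2.16 in vehicle and 2.61, 2.26 and 2.30 in phenolphthalein rats. The mean was higher by 0.17, and phenolphthalein replicate 1 alone stood well apart from the vehicle rats. Without it the difference was 0.06. Mrps35 was higher by 0.13 (2.67 to 2.84 in vehicle, 2.79 to 3.00 in phenolphthalein) and Mrps31 by 0.10, both with overlapping groups.

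**Figure D3:**
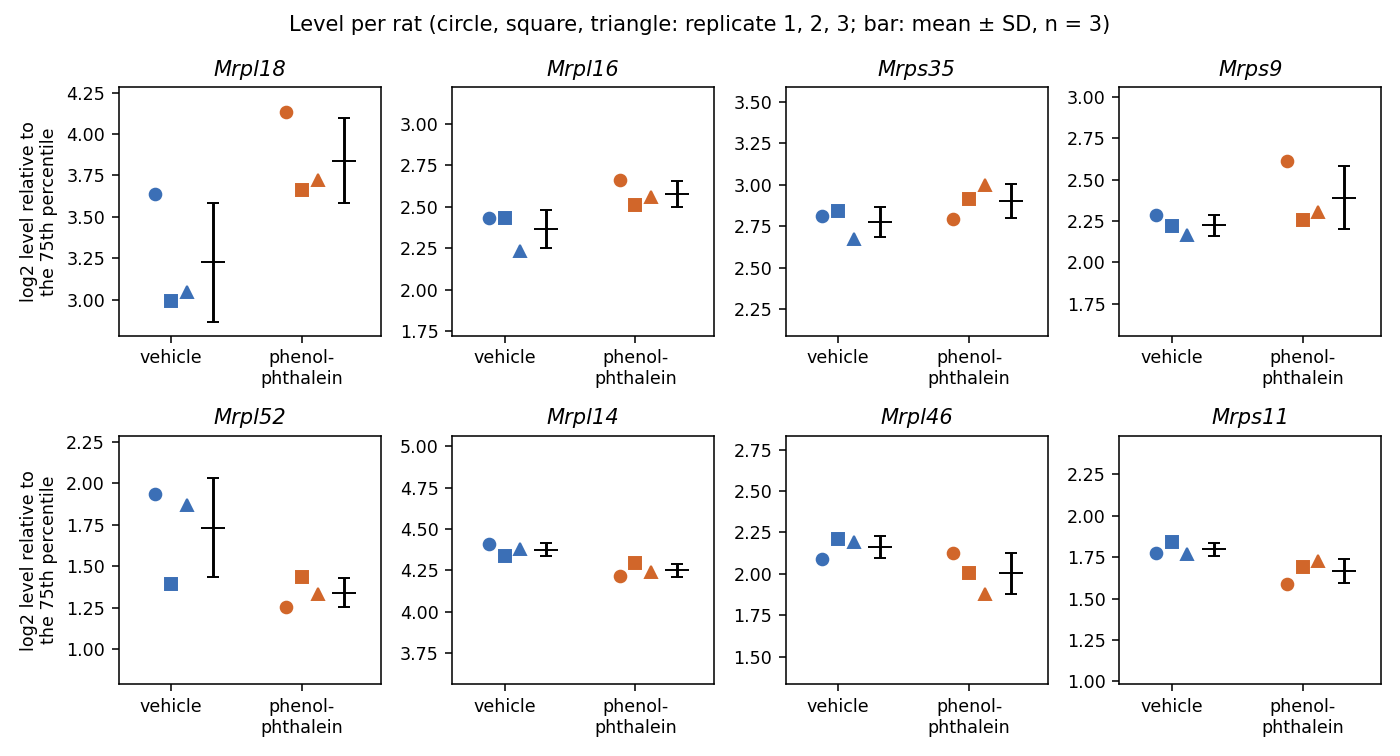
Level of 8 genes in each rat (log2 relative to the array's 75th percentile; blue vehicle, orange phenolphthalein; circle, square and triangle for replicates 1, 2 and 3), with the mean and SD (bar, n = 3) and the same height of scale in every panel. The groups stand apart for Mrpl18, Mrpl16, Mrpl14 and Mrps11 and overlap for Mrps35, Mrps9, Mrpl52 and Mrpl46.

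Different probes of a gene gave a check within the array. Of the 34 genes with more than 1 probe, 13 had probes on both sides of 0. In 6 of these, named by smallest p, the brightest probe differed by -0.06 for Mrps2, -0.05 for Mrpl30, -0.07 for Mrps27, -0.06 for Mrpl20, 0.03 for Mrps17 and 0.03 for Mrps26. Mrps2, had the widest split. Its dimmest probe gave 0.40, where vehicle replicate 1 was at -3.80 and the other 5 rats between -2.46 and -2.21. The other 5 of these genes had second probes within 0.08 of 0, so no direction can be given for them. For Mrpl30, the probe above 0 (0.04) was its dimmest, with a mean level of -5.9, and its brighter probes gave -0.05 and -0.08.

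Some of these genes start close to a neighbour that is read the other way. Of the 54 genes with an entry in the RefSeq promoter table, 16 (29.6%) had a protein-coding neighbour on the opposite strand whose start lay within 1000 bases and pointed away, at a distance of 44 to 996 bases. Of all 19005 coding promoters in the table, 6.99% had such a neighbour. The partners of 14 were tested, and 0 of them had an unadjusted p under 0.05, beside 8.87% of all items. In 8 of the 14 the gene and its partner had differences of opposite sign and in 6 of the same sign, counting the pair of Mrpl46 and Mrps11 from both sides. Mrpl18 starts 425 bases from Tcp1, a subunit of the cytosolic chaperonin, which differed by -0.01 (SE 0.06) where Mrpl18 differed by 0.61. Mrpl47 starts 244 bases from Ndufb5, a subunit of respiratory complex I, and the pair stood at 0.03 and -0.09, where Mrpl47 was at -0.02 without phenolphthalein replicate 1. Mrpl46 and Mrps11, with starts 234 bases apart, join a large and a small subunit gene, and both had lower means (-0.16 and -0.13). The bases between their starts (chr1:142117031-142117263, GRCr8, read in the direction of Mrps11, plus strand) are shown because both genes encode proteins of the mitochondrial ribosome. Whether the 2 genes share a promoter was not tested.
Mrpl46 to Mrps11, 233 bases between the starts: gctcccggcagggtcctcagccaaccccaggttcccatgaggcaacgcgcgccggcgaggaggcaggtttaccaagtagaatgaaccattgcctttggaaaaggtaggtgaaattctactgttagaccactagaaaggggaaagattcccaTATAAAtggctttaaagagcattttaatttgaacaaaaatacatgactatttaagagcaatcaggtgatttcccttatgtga
The capitals mark a TATAAA match 82 bases before the start of Mrps11.

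Promoters of the 54 genes were searched on both strands, from 250 bases before the start to 50 after it, for 6 motifs, and the shares were set beside those of all 19005 protein-coding promoters in the table. NRF1 and GABPA, an ETS factor, are known as activators of nuclear genes for mitochondrial proteins, and YY1 binds many of the same promoters. The NRF1 core, GCGCA and GCGC with any base between them, was found in 9 promoters (16.7%, beside 6.09% of coding promoters and 4.71% of all 27457). The ETS core CCGGAAG was found in 19 (35.2%, beside 11.2% and 9.22%), and the YY1 core AAGATGGCG in 8 (14.8%, beside 2.29% and 1.93%). At least 1 of these 3 stood in 29 promoters, 53.7% beside 17.6% of coding promoters. The general motifs differed less: the GC box GGGCGG stood in 51.9% beside 43.1%, CCAAT in 46.3% beside 38.4%, and TATAAA in 13% beside 13.1%. The median GC content of the promoters was 56.2% and that of all coding promoters 55.3%, and 2 matches overlapped one of another motif. Genes with and without a motif differed little in their medians. The median log2 fold change was 0.01 with the NRF1 core and -0.03 without it, -0.04 with the ETS core and -0.03 without it, and -0.03 with and without the YY1 core. A match is a description of the letters and does not show that the factor binds there. The stretches before 2 genes show such matches, Mrpl30 (chr9:47621034-47621226, GRCr8, plus strand) and Mrps18a (chr9:22367381-22367580, GRCr8, minus strand).
Mrpl30, between the start of Mitd1 and its own: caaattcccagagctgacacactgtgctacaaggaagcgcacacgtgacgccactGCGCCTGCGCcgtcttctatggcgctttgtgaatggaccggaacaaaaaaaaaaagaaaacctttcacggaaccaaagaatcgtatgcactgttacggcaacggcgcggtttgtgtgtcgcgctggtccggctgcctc
Mrps18a, 200 bases before the start: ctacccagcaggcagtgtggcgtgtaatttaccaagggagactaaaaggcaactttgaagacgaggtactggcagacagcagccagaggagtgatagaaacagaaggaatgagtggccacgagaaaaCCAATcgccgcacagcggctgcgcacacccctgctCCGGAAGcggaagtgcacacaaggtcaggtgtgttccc
The capitals mark the NRF1 core on the opposite strand, 138 bases before the start of Mrpl30, and, for Mrps18a, a CCAAT box 73 bases and the ETS core 38 bases before the start. Mrpl30, whose start faces that of Mitd1 at 194 bases, differed by -0.05, and Mrps18a, which belongs to the large subunit in spite of its name, by -0.04.

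**Figure D4:**
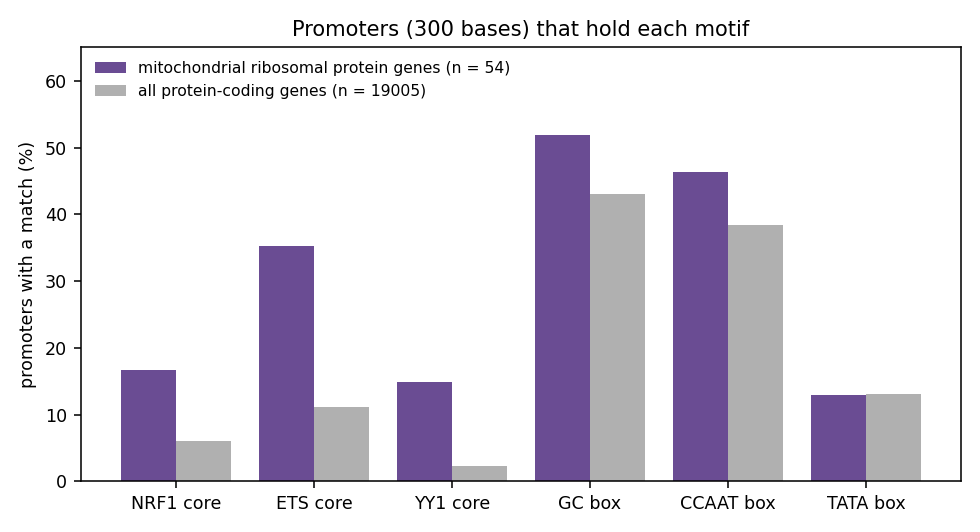
Share of promoters of 300 bases that hold each motif on either strand (percent), for the 54 mitochondrial ribosomal protein genes (purple) and all 19005 protein-coding genes (grey). The NRF1, ETS and YY1 cores stand higher in the purple bars, and the TATA box bars are alike.

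The other genes of mitochondrial translation were taken from lists, and 0 of them passed an adjusted p of 0.05. Of 5 mitoribosomal proteins that go by other names, 2 had higher and 3 lower means (median -0.02). Ptcd3, a small subunit protein with RNA-binding repeats, stood at 5.59, 5.45 and 4.94 in vehicle and 5.24, 5.94 and 5.70 in phenolphthalein rats. The groups overlapped (difference 0.30, SE 0.22), and the difference was 0.11 without vehicle replicate 3 and 0.49 without phenolphthalein replicate 1. Aurkaip1 and Chchd1, also of the small subunit, differed by -0.06 and 0.05. Of 14 translation factors tested of 17 listed, 4 were higher and 10 lower (median -0.04). Among these 14, 0 had an unadjusted p under 0.05, beside 8.87% of all items. The release factor Mtrf1l differed by -0.17 (SE 0.07) and the elongation factor Guf1 by -0.12 (SE 0.06), each without overlap. Lrpprc, which stabilises mitochondrial messages, differed by -0.06. The 16 tested aminoacyl-tRNA synthetases and amidotransferase subunits, of 20 listed, which charge the mitochondrial transfer RNAs, were split 7 higher and 9 lower (median -0.01). Among them Yars2, for tyrosine, differed by 0.11, Gatc by -0.09 and Aars2, for alanine, by 0.21 (0.05 without phenolphthalein replicate 1).

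Of 20 tested genes for assembly of the mitochondrial ribosome and modification of its RNA, of 24 listed, 10 were higher and 10 lower (median -0.0052). Among these 20, 0 had an unadjusted p under 0.05, beside 8.87% of all items. Eral1, a GTPase that chaperones the small subunit RNA, differed by -0.20 (SE 0.09), the endoribonuclease Ybey by -0.16 (0.06 by the median of its probes) and the assembly GTPase Gtpbp10 by 0.09. Of 10 genes for mitochondrial DNA upkeep and transcription, 3 were higher and 7 lower (median -0.04). Mterf2, of the family of mitochondrial transcription termination factors, stood at 0.01, 0.03 and -0.20 in vehicle and -0.46, -0.22 and -0.30 in phenolphthalein rats. Its groups did not overlap (difference -0.27, SE 0.10, limma adjusted p = 0.531). Mterf2 was the 1 gene of these 10 with an unadjusted p under 0.05, where 8.87% of all items had one. The single-strand binding protein Ssbp1 differed by 0.07 and the polymerase subunit Polg2 by -0.10 (-0.21 without phenolphthalein replicate 3, -0.03 without phenolphthalein replicate 1). Of 9 nuclear regulators, 5 were higher and 4 lower (median 0.02). The coactivator Ppargc1b stood at 0.40, 0.34 and 0.66 in vehicle and 0.88, 0.80 and 0.60 in phenolphthalein rats, with overlap (difference 0.29, SE 0.11, limma adjusted p = 0.547). Its relative Ppargc1a differed by 0.28 (SE 0.17), from 0.12 without phenolphthalein replicate 1 to 0.47 without phenolphthalein replicate 2. Myc differed by -0.26 (SE 0.17), from -0.45 without phenolphthalein replicate 2 to -0.17 without phenolphthalein replicate 3. The mitochondrially encoded messages, which this ribosome translates, were not analysed here.

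Of the sets most like the mitochondrial ribosomal protein genes, the proteins of the cytosolic ribosome were tested through 81 genes, 39 with a higher and 42 with a lower mean (median -0.0027, 51.9% lower). Respiratory chain subunits encoded in the nucleus, whose partners the mitochondrial ribosome makes, had 13 of 71 higher and 58 lower, 81.7% lower with a median of -0.046. At an unadjusted p under 0.05, 0 of these 71 were higher and 4 lower, beside 3.91% and 4.96% of all items. The groups did not overlap for 1 higher and 15 lower genes of the 71, beside 6.59% and 9.11% of all items. The difference between these sets and the mitochondrial ribosomal protein genes was not tested. The mean over the respiratory chain genes, as a difference from the vehicle mean, was -0.0013, -0.0069 and 0.0082 in the vehicle rats and -0.08, -0.03 and -0.03 in the phenolphthalein rats. The 3 phenolphthalein rats were below the 3 vehicle rats for that set, with the rat on its own slide lowest, whereas the groups overlapped for the mitochondrial ribosomal protein genes. The mean over the 8 proximal tubule markers, taken in the same way, was 0.01, -0.0097 and -0.0023 in the vehicle rats and -0.13, -0.10 and -0.02 in the phenolphthalein rats. The part of the slide and of these markers in the respiratory chain values was not tested.

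**Figure D5:**
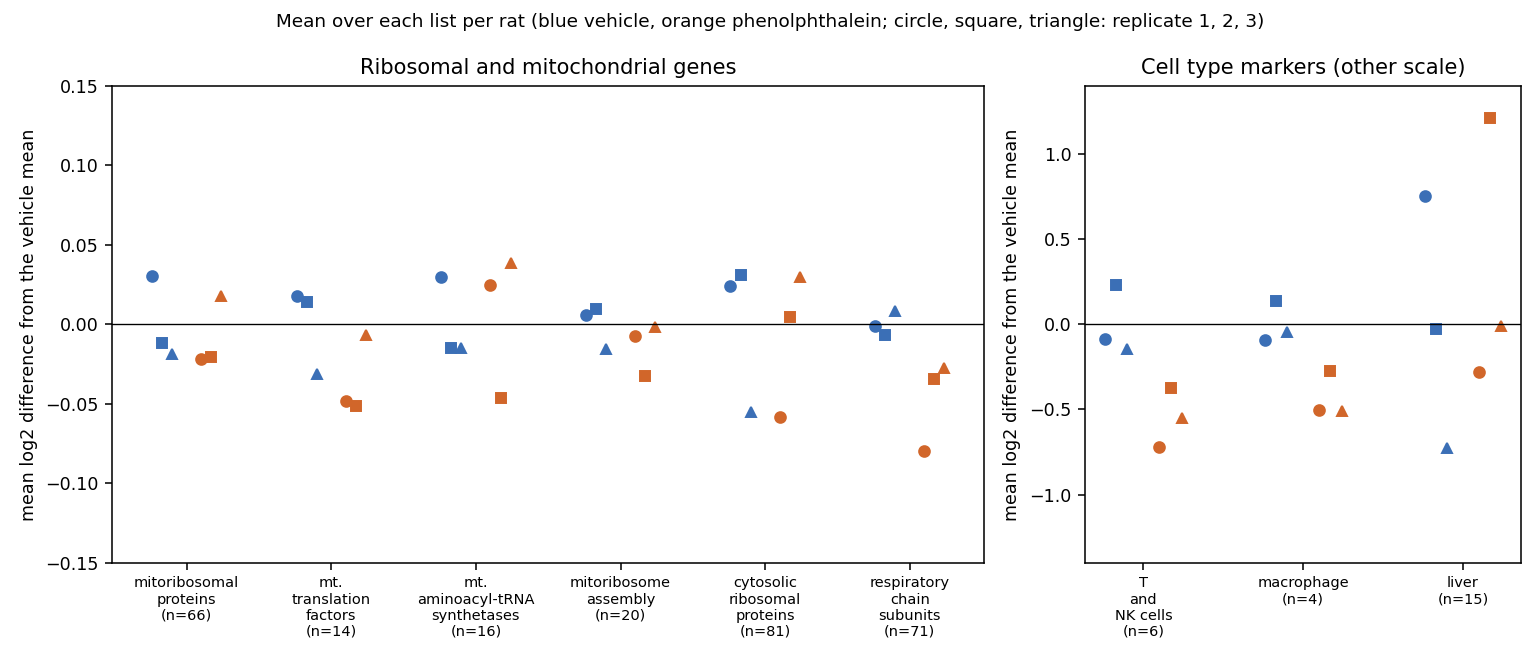
Mean over each gene list in each rat, as log2 difference from the vehicle mean (blue vehicle, orange phenolphthalein; circle, square, triangle for replicates 1, 2, 3); the right panel, with markers of immune cells and liver, has a wider scale. The mitoribosomal means lie between -0.02 and 0.03, with both groups mixed, and the T and NK cell and macrophage means are lower in the phenolphthalein rats.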

How the data were processed

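Total RNA was measured on 1-colour (Cy3) Agilent arrays. The deposited scanner files hold a processed intensity, from which background and spatial trend were already removed within each array by Agilent Feature Extraction 10.7.1.1, per the file headers (10.7 per the submitters' processing notes). The deposited value table holds a ratio: each column equalled the processed intensity divided by the 75th percentile of an array of the same group but of another replicate number (SD of the log2 difference 0.00426 to 0.00720), so replicate names within a group are uncertain. The scanner files' names were used, and 0 columns were left out.

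Levels were log2 of intensity over the array's 75th percentile of non-control probes. Outlier spots were set to missing. Of 61657 probes, 27460 had 1 symbol through RefSeq accessions (GRCr8 table) and 34197 had none. The probe with the highest mean stood for its gene. Items well above background on at least 3 of 6 arrays were kept: 12269 named genes and 22148 unnamed probes. The test was limma's (version 3.58.1, with R 4.3.3 and statmod 1.5.0; eBayes with an intensity trend, two-sided, Benjamini-Hochberg over all items), and the code was tested on simulated data. SDs are between rats. Per the series design the replicates are biological, with 1 array per rat. Promoters are those of the RefSeq table; of 66 genes, 12 had none there.

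Genes were named by rule: those past the threshold, the 8 with the smallest p in each direction, up to 6 with probes of both signs, those not tested, and up to 3 of each pathway list; a few others were chosen after their values were seen, namely Mrpl4, Mrpl47, Mrps18a, Mrps33, Mrps5, the neighbours of head-to-head pairs and the marker genes with values. The genes and lists were chosen with earlier results of these data known. Alternatives were normexp background correction (offset 50, on the median spot signal, the mean signal not being used here), quantile normalization, median centring, the value table, 2 other filters, the median of a gene's probes, slide or replicate number as a block, outlier spots kept, a fit without the trend, and leaving out each array. Replicate numbers do not pair the rats in the labels.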

Additional observations from a re-analysis of the deposited data

How the results depend on the processing

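Under each of these alternatives, 0 of the 66 genes passed an adjusted p of 0.05 (limma). The counts at an unadjusted p under 0.05, 2 higher and 2 lower, moved to 1 and 1 with normexp, to 1 and 0 without the intensity trend, and to 2 and 1 with quantile normalization, median centring, the median of probes or the slide as a random block (smallest adjusted p 0.713). Leaving out 1 array gave 0 to 2 higher and 0 to 3 lower. Of the 4 genes, on leaving out arrays, Mrpl18 lost that threshold without vehicle replicate 2, vehicle replicate 3 or phenolphthalein replicate 1, and Mrpl16 without vehicle replicate 3, phenolphthalein replicate 1 or phenolphthalein replicate 3. Mrpl52 and Mrpl14 each lost it without vehicle replicate 1, vehicle replicate 3, phenolphthalein replicate 1 or phenolphthalein replicate 3, and Mrpl14 also without vehicle replicate 2. The causes were not tested. The median of the 66 genes ranged from -0.039 (without phenolphthalein replicate 3) to 0.00033 (quantile normalization). The direction turned for 8 genes named with a difference. With the median of probes Mrps17 was at -0.0018, Mrps26 at -0.0019, Ybey at 0.063 and Slc12a3 at 0.016. With 1 array left out, Mrpl20 ranged from -0.107 to 0.0040, Mrpl4 from -0.34 to 0.026, Mrpl47 from -0.021 to 0.133 and Tcp1 from -0.035 to 0.028, and Tcp1 was at 0.0066 with normexp and 0.00086 with quantile normalization. Leaving out 1 array moved the difference by over 1.5 times, or turned it, in 34 of 49 genes so examined, with 0 past the adjusted threshold in the full data.

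With the replicate number as a block, 0 genes passed the unadjusted threshold as lower and 2 as higher, and the smallest adjusted p was 0.400. Deviations of same-numbered rats correlated at -0.0061, -0.015 and 0.025. Replicate numbers are uncertain within a group, so a pairing in another order could not be seen, and no conclusion on pairing is drawn.

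Signal limits few of these genes, since 112 of 113 probes were well above background on all arrays; 3 rats per group limit the intervals.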
